A study of Mus musculus with 8 samples.

Results

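Macrophage genes were examined in mouse gastrocnemius (GAS) muscle with prolonged knockdown of MYTHO. They were a set of 39 genes for the phagocytic machinery, the resident macrophage phenotype and the phagocyte NADPH oxidase. The genes were chosen by name among 22664 gene symbols, with earlier results of these data known. Each had 1 probe set, listed for that gene alone, so all 39 were measured, and the software marked every one of them as expressed in both groups. Of the 39 genes, 18 rose in MYTHO-KD muscles and none fell in the moderated test of limma, taken at p under 0.05 before adjustment. Over all 22206 probe sets, 6.48% rose and 5.52% fell by the same rule. These shares are given for description and are not a test of the set. The largest rises were those of *Cd68*, a lysosomal glycoprotein of macrophages (5.78-fold), and *Lyz2*, the lysozyme of myeloid cells (3.84-fold). These were the 2 members that also passed the adjustment over all probe sets. Neither passed it without moderation of the variances or with unequal variances in the groups.

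Male C57/Bl6j mice had received intramuscular AAV at about 10 weeks of age, and the muscles were taken at 22 weeks of age, 12 weeks later. The right leg received an AAV of serotype 1 coding for a sh-RNA against *Mytho* (AAV sh-RNA MYTHO, here MYTHO-KD, 4 arrays), and the opposite leg received the same type of vector with a scramble sh-RNA (AAV sh-RNA scramble, 4 arrays). Both groups therefore carry vector, and no muscle without AAV was analysed here. The U6 promoter that drives the sh-RNA is active in most cell types, so that the knockdown follows where the vector goes and is not set by a muscle promoter. Total RNA isolated from samples of the GAS muscle was hybridized to Clariom S Mouse arrays. The paper's methods do not say which part of the muscle these samples came from. The authors' table holds an average and an SD for each group on the log2 scale, which are the values given below. Signals of single arrays were not analysed here, so that it cannot be stated which muscles were high or whether single values of the groups overlapped. For the same reason, right and left legs were compared without pairing.

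The sh-RNA target, listed as *D230025D16Rik*, had an average of 10.02 in scramble and 7.71 in MYTHO-KD, a fall to 20.2% of the scramble signal (adjusted p = 0.0138, limma). The 10 skeletal muscle fibre markers were all marked as expressed, with averages from 16.34 to 19.93. *Acta1* and *Myh4* were at 19.93, the top of the scale, with an SD of 0, so that no difference can show in these genes. The median log2 difference over all probe sets was -0.01.

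Macrophages of skeletal muscle are of mixed origin. Resident cells sit in the connective tissue between fibres, and monocytes from the blood join them after injury, clear fibre debris and then support regeneration. Both depend on colony-stimulating factor 1 (*Csf1*), which acts through the receptor encoded by *Csf1r*, and on the transcription factor PU.1, encoded by *Spi1*. Debris is recognised through C1q, through Fc receptors that bind antibody on the target, and through scavenger and lectin receptors. Many of these receptors signal through short adaptor proteins with an ITAM, *Tyrobp* and *Fcer1g*. The engulfed material is broken down in lysosomes, and the phagocyte oxidase, built on *Cybb* and *Cyba* in the membrane and on *Ncf1* and *Ncf4* from the cytosol, delivers superoxide.

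PU.1 binds a purine-rich box, and the letters GAGGAA were searched on both strands of the RefSeq promoter windows, which run from 250 bases before to 50 bases after each annotated start on the build GRCm38.p6. Windows were at hand for 28 of the 39 genes, and 16 of the 28 held the box in at least 1 window. Counted by window, it was found in 18 of 33 windows of these genes (54.5%) and in 28.3% of all 32851 promoter windows. Among the 7 members that were at least 2-fold higher in MYTHO-KD and had a window, 4 held the box, as did 12 of the 21 others, so that the share was 57.1% in both. A match of these letters is no evidence of binding, and the lack of a match is no evidence against it. The windows below are those of the 2 members that passed the adjustment, of a pair of neighbouring C1q genes and of a pair of neighbouring Fc receptor genes, of which *Fcgr3* passed the test and *Fcgr4*, a dim probe set, did not. The difference between these 2 genes was not tested. They are written 5′ to 3′ along the gene, with GAGGAA or its reverse complement TTCCTC in capitals.
Cd68 (chr11:69666121-69666420, minus strand): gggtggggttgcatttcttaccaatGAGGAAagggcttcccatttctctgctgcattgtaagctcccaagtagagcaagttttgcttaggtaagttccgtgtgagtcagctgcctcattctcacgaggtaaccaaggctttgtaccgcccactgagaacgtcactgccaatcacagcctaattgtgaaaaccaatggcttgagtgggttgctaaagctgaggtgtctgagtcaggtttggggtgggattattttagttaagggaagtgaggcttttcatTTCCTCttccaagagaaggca
Lyz2 (chr10:117282223-117282522, minus strand): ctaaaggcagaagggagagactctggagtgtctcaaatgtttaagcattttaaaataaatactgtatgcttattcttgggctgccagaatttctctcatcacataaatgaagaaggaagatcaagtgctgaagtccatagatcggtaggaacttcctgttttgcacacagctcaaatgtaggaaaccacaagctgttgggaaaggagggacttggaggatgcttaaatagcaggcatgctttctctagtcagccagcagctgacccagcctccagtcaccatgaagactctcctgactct
C1qb (chr4:136886151-136886450, minus strand): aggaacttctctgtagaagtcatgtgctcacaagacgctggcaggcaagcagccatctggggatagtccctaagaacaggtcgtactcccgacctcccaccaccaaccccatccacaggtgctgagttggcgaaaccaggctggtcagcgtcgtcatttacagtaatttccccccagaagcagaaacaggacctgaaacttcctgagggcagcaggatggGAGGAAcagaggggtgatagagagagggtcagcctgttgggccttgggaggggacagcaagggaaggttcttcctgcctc
C1qc (chr4:136892865-136893164, minus strand): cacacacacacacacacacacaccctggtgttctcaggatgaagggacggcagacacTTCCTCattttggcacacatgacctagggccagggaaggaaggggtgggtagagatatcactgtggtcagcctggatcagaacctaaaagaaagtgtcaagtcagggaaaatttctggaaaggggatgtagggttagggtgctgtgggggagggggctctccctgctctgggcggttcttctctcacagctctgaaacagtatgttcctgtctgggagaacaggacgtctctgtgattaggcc
Fcgr3 (chr1:171059354-171059653, minus strand): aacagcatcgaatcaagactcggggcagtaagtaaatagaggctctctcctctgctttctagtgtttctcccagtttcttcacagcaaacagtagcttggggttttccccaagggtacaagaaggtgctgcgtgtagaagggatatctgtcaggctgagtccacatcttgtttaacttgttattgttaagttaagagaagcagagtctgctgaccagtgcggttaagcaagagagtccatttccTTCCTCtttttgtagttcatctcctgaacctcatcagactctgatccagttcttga
Fcgr4 (chr1:171018676-171018975, plus strand): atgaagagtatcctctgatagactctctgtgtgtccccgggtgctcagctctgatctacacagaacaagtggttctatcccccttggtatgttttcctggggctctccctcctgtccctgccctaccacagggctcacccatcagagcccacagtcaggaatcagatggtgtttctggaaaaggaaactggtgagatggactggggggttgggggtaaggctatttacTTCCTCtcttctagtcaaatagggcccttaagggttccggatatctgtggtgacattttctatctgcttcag
In *Cd68* the box lay at -225 to -220 and again, on the other strand, at 30 to 35 after the start, whereas the *Lyz2* window held none. In *C1qb* it lay at -30 to -25 and in *C1qc* at -193 to -188. The windows of *Fcgr3*, at -6 to -1, and *Fcgr4*, at -22 to -17, both held it close to the start.

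The question put to the arrays was whether macrophage genes differed between MYTHO-KD and scramble muscles 12 weeks after injection. Of the 39 genes, 35 had a higher average in MYTHO-KD, against 46.9% of all probe sets, and their median log2 difference was 0.49. A 2-fold or larger rise at an unadjusted p under 0.05, which is the threshold of the study's methods, was found for 8 members, where 0.86% of all probe sets passed it. No member fell by that rule, for which the share over all probe sets was 0.257%. When p was adjusted by Benjamini-Hochberg across the array, 2 members remained, both higher, against 0.18% of all probe sets that were higher and 0.0946% that were lower at that level. Without *Cd68* and *Lyz2*, 16 of 37 members rose and the median was again 0.49. In 13 members, the range of the average plus or minus 1 SD in MYTHO-KD lay wholly above that in scramble, compared with 4.03% of all probe sets. The words rose and fell are used below at an unadjusted p under 0.05, two-sided. In bulk muscle RNA, more macrophages and more RNA of these genes per macrophage cannot be told apart.

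**Figure D1:**
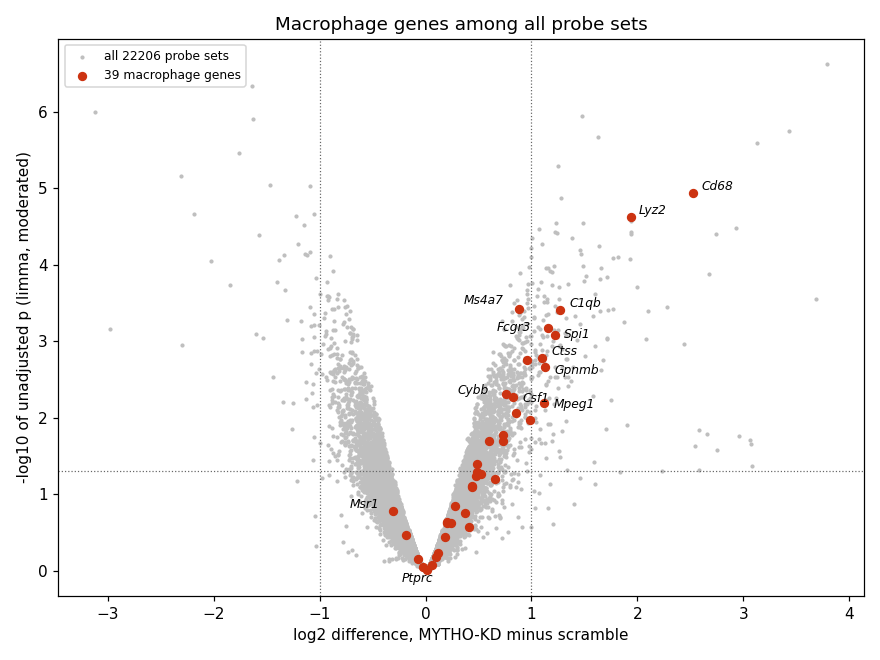
Log2 difference of the authors' group averages (x axis, MYTHO-KD minus scramble) against −log10 of the unadjusted p (y axis, limma's moderated test) for all 22206 probe sets (grey) and the 39 macrophage genes (red). Dotted lines mark the 2-fold limits and the level of the test. Of the red points, 8 lie in the upper right field and none in the upper left.

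All 3 genes that set up the lineage rose, none of them at an adjusted p under 0.05. Whether they rose in the same muscles was not tested. *Spi1*, the gene of PU.1, had an average of 8.77 (SD 0.26) in scramble and 9.99 (SD 0.61) in MYTHO-KD, a 2.33-fold difference (log2 difference 1.22, 95% interval 0.62 to 1.82, adjusted p = 0.0991). *Csf1*, the ligand, went from 10.49 (SD 0.36) to 11.32 (SD 0.43), a log2 difference of 0.83. Its receptor *Csf1r* went from 6.78 (SD 0.13) to 7.77 (SD 0.82). The log2 difference of *Csf1r* was 0.99, just under 2-fold, and with unequal variances in the groups its unadjusted p was 0.0931, so that this rise depended on the variance model. All 3 genes had ranges of average plus or minus SD that did not touch. Among the remaining colony-stimulating factors and receptors of a list from general knowledge, none of the 6 (*Il34*, *Csf2*, *Csf3*, *Csf2ra*, *Csf2rb* and *Csf3r*) passed the test in either direction, and their log2 differences lay between -0.21 and 0.18. *Il34*, the second ligand of the same receptor, had a difference of -0.15.

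Among the 11 general markers of macrophages and leukocytes, 5 rose and none fell. *Cd68*, on chromosome 11 from 69664213 to 69666153 (mm10), had an average of 6.90 (SD 0.20) in scramble and 9.43 (SD 0.88) in MYTHO-KD. The difference of 2.53 (standard error 0.351, 95% interval 1.76 to 3.30) had an adjusted p of 0.0182. *Lyz2*, on chromosome 10 from 117277333 to 117282274, went from 9.17 (SD 0.35) to 11.11 (SD 0.62). Its difference was 1.94 (standard error 0.290, 95% interval 1.31 to 2.57) with an adjusted p of 0.0277. With unequal variances in the groups, the unadjusted p was 0.00858 for *Cd68* and 0.00334 for *Lyz2*, and neither gene passed the adjustment. The sequence of *Lyz2* is close to that of its neighbour *Lyz1*, and cross-hybridization between them was not tested. *Lyz1*, which was looked up after its values were seen, was 1.00 higher on the log2 scale (adjusted p = 0.0380, limma).

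The other 3 general markers that rose were *Ctss*, *Mpeg1* and *Laptm5*. *Ctss*, a cysteine protease of antigen-presenting cells, rose from 7.26 (SD 0.35) to 8.36 (SD 0.55), or 2.14-fold. *Mpeg1*, which encodes a pore-forming protein of phagosomes, rose from 4.84 (SD 0.18) to 5.96 (SD 0.85), or 2.17-fold. *Mpeg1* was among the 9 members below the 30th percentile of all signals (5.715), and with unequal variances its unadjusted p was 0.0751. *Laptm5*, a lysosomal membrane protein of blood cells, rose from 7.91 (SD 0.07) to 8.87 (SD 0.54), a log2 difference of 0.96 that stayed just under 2-fold.

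The remaining 6 general markers did not pass the test. *Adgre1*, the gene of the F4/80 antigen, was at 6.61 (SD 0.33) in scramble and 7.09 (SD 0.38) in MYTHO-KD, with a difference of 0.48 and an interval from -0.02 to 0.98. *Cd14*, the co-receptor for bacterial lipopolysaccharide, differed by 0.18 and *Aif1*, the gene of IBA1, by 0.01, with an SD of 0.73 in scramble. *Aif1* was below the 30th percentile of all signals, where a difference can be hidden by the floor. For *Cd53* and *Cd52*, which encode surface proteins shared by most leukocytes, the differences were 0.44 and 0.52, with intervals that reached below 0. *Ptprc*, the gene of the pan-leukocyte phosphatase CD45, was at 7.69 (SD 0.17) in scramble and 7.67 (SD 0.13) in MYTHO-KD. Its interval of -0.37 to 0.33 does not reach 2-fold in either direction. Because the covariance between probe sets needs single arrays, the gap between the rise of *Cd68* and the value of *Ptprc* was not itself tested.

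**Figure D2:**
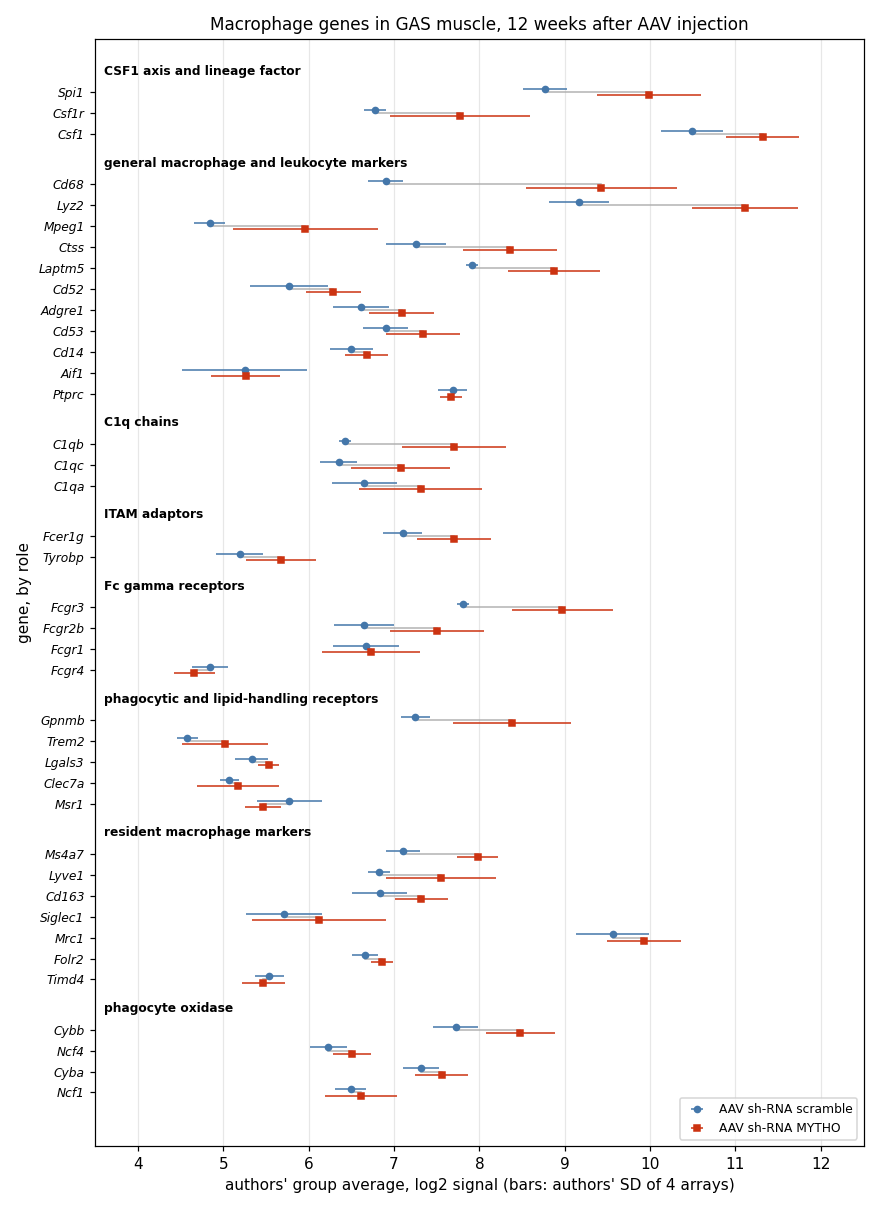
Authors' group averages (log2 signal, x axis) of the 39 genes, by role (y axis), in AAV sh-RNA scramble (blue circles) and AAV sh-RNA MYTHO (red squares), with the authors' SD of 4 arrays as bars. *Cd68* moves from 6.90 to 9.43, whereas the symbols of *Ptprc* lie on each other. Signal depends on the probes as well as on the RNA, so levels are not to be compared between genes.

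The 3 chains of C1q are made from a cluster on chromosome 4 and assemble into 1 molecule that opens the classical complement pathway and tags debris. All 3 had a higher average in MYTHO-KD. *C1qb*, from 136880129 to 136886187, rose from 6.43 (SD 0.07) to 7.70 (SD 0.61), or 2.41-fold (log2 difference 1.27, adjusted p = 0.0754). *C1qc*, from 136889802 to 136893065, rose from 6.35 (SD 0.22) to 7.08 (SD 0.58), with a log2 difference of 0.73. *C1qa*, from 136895916 to 136898844, went from 6.65 (SD 0.38) to 7.31 (SD 0.72), and its difference of 0.66 did not pass the test (95% interval -0.04 to 1.36). The intervals of the 3 chains overlapped. *C1qc* no longer passed without moderation of the variances or with unequal variances (unadjusted p = 0.0568 and 0.0808).

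Of the ITAM adaptors, *Fcer1g*, the common gamma chain of Fc receptors, rose from 7.10 (SD 0.23) to 7.70 (SD 0.43). *Tyrobp*, which encodes DAP12, was at 5.19 (SD 0.28) and 5.68 (SD 0.41), with a difference of 0.49 and an unadjusted p of 0.0513. It was below the 30th percentile of all signals. In both genes the ranges of average plus or minus SD touched.

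The Fc gamma receptors, which bind the constant part of IgG, were 4 genes, of which 2 rose. The low-affinity activating receptor *Fcgr3*, on chromosome 1 from 171051169 to 171064935, rose from 7.81 (SD 0.07) to 8.97 (SD 0.59), or 2.23-fold (adjusted p = 0.0920). The inhibitory receptor *Fcgr2b* rose from 6.65 (SD 0.35) to 7.50 (SD 0.55), a log2 difference of 0.85. The high-affinity receptor *Fcgr1* was at 6.67 (SD 0.39) and 6.73 (SD 0.57), a difference of 0.06 with an interval from -0.56 to 0.68. *Fcgr4*, which lies between the other low-affinity genes and encodes a further activating receptor, was at 4.84 (SD 0.21) and 4.66 (SD 0.24), near the floor of the arrays. As shown by the windows above, the promoters of *Fcgr3* and *Fcgr4* both hold a GAGGAA box close to the start. *Fcgr2b* and *Fcgr3* are alike in their extracellular part, and cross-hybridization between them was not tested.

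Of the phagocytic and lipid-handling receptors, 1 of 5 rose. *Gpnmb*, a transmembrane glycoprotein of lipid-laden macrophages, rose from 7.25 (SD 0.17) to 8.38 (SD 0.69), or 2.19-fold (log2 difference 1.13, 95% interval 0.50 to 1.76). *Trem2*, the lipid receptor that signals through *Tyrobp*, was at 4.58 (SD 0.12) and 5.02 (SD 0.50), a difference of 0.44 with an interval from -0.06 to 0.94. *Msr1*, the class A scavenger receptor, had the lowest difference of all members, -0.31, from 5.77 (SD 0.38) to 5.46 (SD 0.21), and did not pass the test (unadjusted p = 0.164). For *Clec7a*, the receptor for beta-glucan, and *Lgals3*, a galectin released by activated macrophages, the differences were 0.10 and 0.20. These 4 genes were all below the 30th percentile of signals, where a difference can be hidden by the floor.

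Of the 7 resident macrophage markers, 3 rose. *Ms4a7*, a membrane-spanning protein of tissue macrophages, rose from 7.10 (SD 0.20) to 7.98 (SD 0.24). Its difference of 0.88 (95% interval 0.49 to 1.27, adjusted p = 0.0749) had the third lowest p of all members, and its SD in MYTHO-KD (0.24) was below those of *Cd68* (0.88) and *Lyz2* (0.62). *Lyve1*, a hyaluronan receptor of perivascular macrophages, rose from 6.82 (SD 0.13) to 7.55 (SD 0.64). *Lyve1* also marks lymphatic vessels, and of 5 other lymphatic markers (*Prox1*, *Pdpn*, *Flt4*, *Ccl21a* and *Reln*) 1 had a higher average and none passed the test. *Cd163*, the scavenger receptor for haemoglobin, rose from 6.83 (SD 0.32) to 7.32 (SD 0.31). The rises of *Lyve1* and *Cd163* did not pass without moderation of the variances (unadjusted p = 0.0667 and 0.0701).

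The other 4 resident markers did not pass. *Mrc1*, the mannose receptor, was at 9.56 and 9.93 with an SD of 0.43 in each group. *Siglec1*, a sialic acid receptor, differed by 0.41, with the widest interval of these markers (-0.36 to 1.18). *Folr2*, a folate receptor, differed by 0.20. *Timd4*, a receptor for phosphatidylserine on long-lived resident cells, was at 5.54 (SD 0.17) and 5.47 (SD 0.25), a difference of -0.07. It was below the 30th percentile of all signals.

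All 4 oxidase subunits had higher averages in MYTHO-KD, and 1 rose. *Cybb*, the catalytic subunit gp91phox, went from 7.72 (SD 0.26) to 8.48 (SD 0.40), a log2 difference of 0.76 (95% interval 0.28 to 1.24, adjusted p = 0.191). Its membrane partner *Cyba* was at 7.32 (SD 0.21) and 7.56 (SD 0.31). The cytosolic organiser *Ncf1* differed by 0.12, and *Ncf4*, which binds phosphoinositides of the phagosome, went from 6.23 to 6.51 with an SD of 0.22 in each group. Of 9 further oxidase subunits and homologues, *Rap1a*, a small GTPase found with the membrane subunits, rose by 0.48, and *Rac1*, a GTPase used by many cell types, fell by 0.37. The difference between *Cybb* and its partners was not tested.

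**Figure D3:**
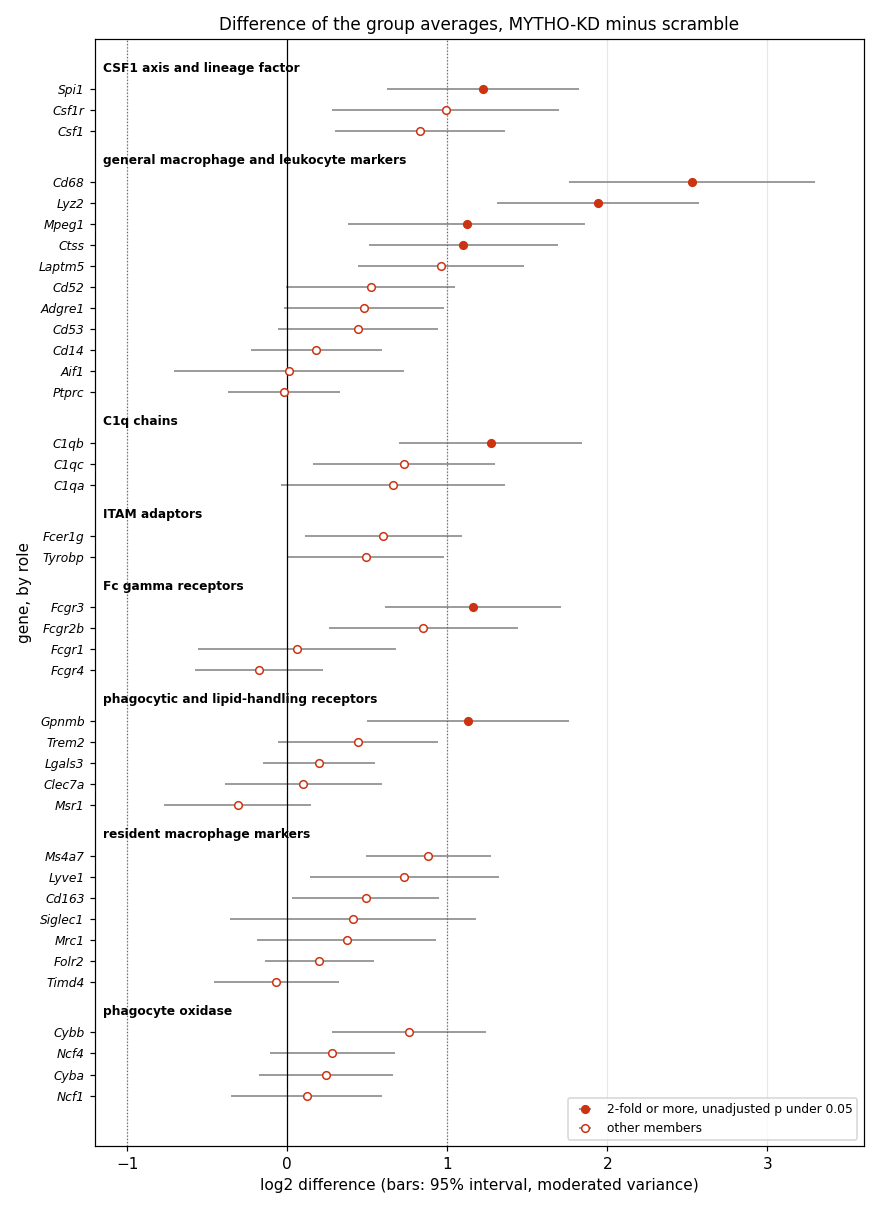
Log2 difference between MYTHO-KD and scramble (x axis) with its 95% interval for the 39 genes, ordered by role and size (y axis). Filled circles are the 8 members that passed both the 2-fold limit and the test, and dotted lines mark 2-fold in either direction. Intervals of *Cd68* and *Lyz2* lie wholly above 2-fold, while those of *Msr1*, *Fcgr4*, *Timd4* and *Ptprc* are centred below 0.

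The arrays of the MYTHO-KD group differed more among themselves in these genes than those of scramble. The authors' SD was larger in MYTHO-KD for 29 of the 39 genes, smaller for 7 and equal for 3, whereas it was larger in MYTHO-KD for 48.1% of all probe sets. The median SD of the members was 0.43 in MYTHO-KD and 0.22 in scramble, compared with 0.27 in both groups over all probe sets. Of the 18 genes that rose, 17 had the larger SD in MYTHO-KD, with a median of 0.585 against 0.21. For the 21 others, these medians were 0.38 and 0.25. The widest spreads in MYTHO-KD were those of *Cd68* (0.88), *Mpeg1* (0.85) and *Csf1r* (0.82), whose SDs in scramble were 0.20, 0.18 and 0.13. *Ms4a7*, *Cd163* and *Ptprc* had SDs of 0.31 or less in MYTHO-KD. The share with the larger SD in MYTHO-KD was not taken among all probe sets that rose. The average and the SD of a group come from the same 4 arrays for every gene, so that these counts are not separate observations. Which muscles were high was not tested.

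**Figure D4:**
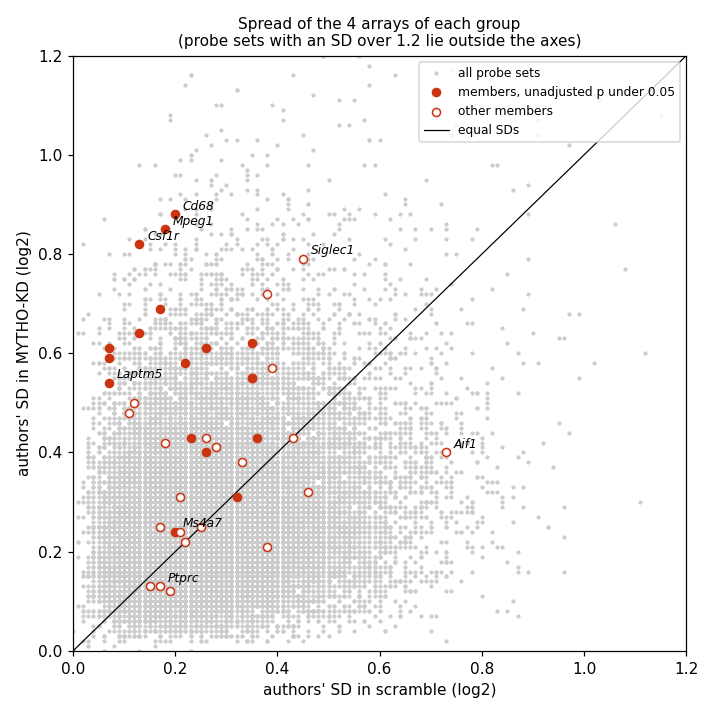
Authors' SD of the log2 signal over the 4 arrays of scramble (x axis) and of MYTHO-KD (y axis) for all probe sets (grey), the 18 members that rose (filled) and the 21 others (open). The line marks equal SDs. Of the 39 members, 29 lie above it.

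Further genes of macrophage biology were taken from lists made from general knowledge, of 106 genes in all beside the members. Of these, 23 rose, 8 of them at 2-fold or more, and 4 fell, with a median log2 difference of 0.13. Over all probe sets, 6.48% rose, 0.86% rose 2-fold or more and 5.52% fell. The same shares stand beside the counts of each list below. Of 21 engulfment, scavenger and other surface receptors of phagocytes and their ligands, 9 rose and none fell. The engulfment receptor *Mertk* and the scavenger receptors *Stab1*, *Cd36*, *Marco* and *Scarb1* were among those that did not pass. *Tlr4*, the receptor for lipopolysaccharide, rose from 7.22 (SD 0.39) to 8.69 (SD 0.42), with an adjusted p of 0.0380, and *Tlr7*, a receptor for single-stranded RNA, from 6.32 to 7.54. *Gas6*, which bridges dying cells to TAM receptors, rose by 1.15, and its receptor *Axl* by 1.03. *Lilrb4a*, an inhibitory receptor of myeloid cells, rose by 1.33 and *Lrp1*, an endocytic receptor also found on fibroblasts, by 1.00.

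Below the ITAM receptors, 5 of 14 kinases and adaptors rose, namely *Syk* (0.50), *Btk* (0.68), *Plcg2* (0.40), *Inpp5d* (0.54) and *Sirpa* (0.78), and none fell. *Syk* encodes the kinase that docks on phosphorylated ITAMs, and *Inpp5d* and *Sirpa* encode inhibitors of the same pathway. Of 15 lipid and lysosome genes of phagocytes, 5 rose, with *Fabp5*, a fatty acid carrier, at 0.89 and *Grn*, the gene of progranulin, at 0.82. Lysosomal genes are also expressed by muscle fibres. Of 10 myeloid transcription factors, *Runx1* rose by 1.22 and *Nr1h3*, a sterol-sensing receptor, by 0.57, while *Maf* fell by 0.52. None of the others passed the test, among them *Irf5* (0.13) and *Irf8* (-0.12). Whether the differences of *Runx1*, *Nr1h3* and *Maf* arose in macrophages or in other cells of the muscle was not tested.

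Few genes that mark states of activation passed the test. Of 16 inflammatory genes, 1 rose and 1 fell, close to the shares of 6.48% and 5.52% over all probe sets. *Ccr2*, the chemokine receptor of recruited monocytes, rose from 5.46 (SD 0.32) to 6.47 (SD 0.14), with an adjusted p of 0.0553, and *Il6* fell by 0.73 on the log2 scale. *Nos2* differed by -0.48 and *Nlrp3* by -0.45, neither of which passed. Of 16 genes of resident or alternatively activated macrophages, 8 had a higher average, none rose and 1 fell (*Ccl24*, by 0.42), with a median of -0.005. The inflammatory list reached down to 3.97 in scramble, near the floor, where small differences can be missed.

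Markers of other cells were set beside these values. None of the 12 neutrophil, 8 B and plasma cell, 8 dendritic cell, 7 mast cell and 6 osteoclast markers passed in either direction. Of the 13 T and NK cell markers, none rose and *Klrb1c* fell by 0.72. The medians of these 6 lists lay between -0.16 (mast cells) and 0.085 (osteoclasts), and 5 of their markers were not marked as expressed in MYTHO-KD. All 8 fibroblast markers had a higher average, with a median of 0.75, and 4 of them rose, led by *Lum* (1.49, adjusted p = 0.0443), *Col3a1* (1.43) and *Pi16* (1.14). All 7 endothelial markers had a higher average as well, with a median of 0.34, and *Kdr* rose by 0.75. In the skeletal muscle fibre list, 1 of 10 rose (*Myh1*, by 0.59) and 1 fell (*Ryr1*, by 0.39), with a median of -0.04. That median includes *Acta1* and *Myh4* at the top of the scale and further genes close to it, where differences can be missed. *Csf1*, *Gas6*, *Axl* and *Lrp1* are also expressed by fibroblasts. The part of these cells in the differences of the macrophage genes was not tested.

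**Figure D5:**
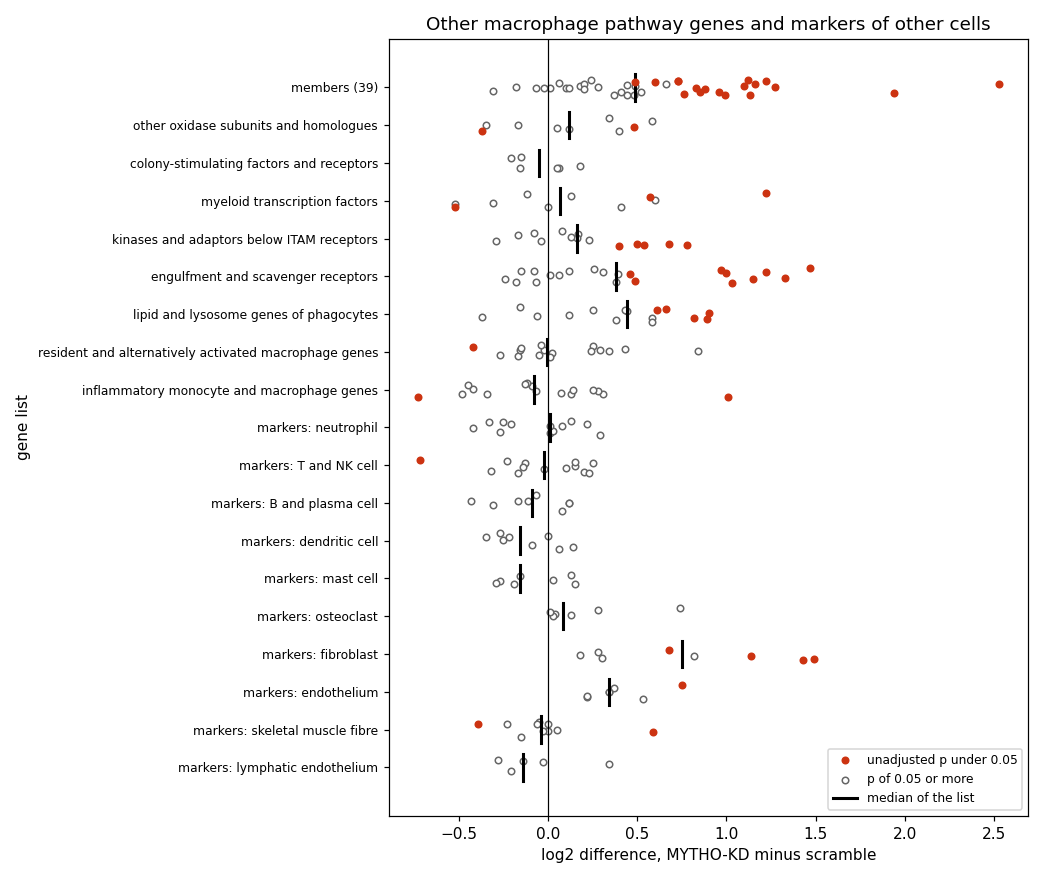
Log2 difference between MYTHO-KD and scramble (x axis) for the 39 members, the lists of other macrophage pathway genes and the markers of other cells (y axis), 1 point per gene. Red points have an unadjusted p under 0.05 and black bars are the medians of the lists. The medians are 0.49 for the members, 0.75 for fibroblast markers and -0.02 for T and NK cell markers.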

How the data were processed

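GAS muscle RNA of 8 samples was hybridized to Clariom S Mouse arrays, with 4 arrays per group assigned from the sample titles. Signals had been summarized by the authors in Transcriptome Analysis Console (SST-RMA per the methods; the labels name Affymetrix Expression Console and RMA), who deposited 1 table with an average and an SD per group on the log2 scale, annotated on mm10. SST-RMA widens fold changes relative to plain RMA. The table also holds the authors' own fold changes, p-values and false discovery rates, which were not used here, and it has 0 unused columns of single samples.

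Differences were taken on the log2 scale as MYTHO-KD minus scramble. Variances of both groups were pooled (6 residual degrees of freedom) and moderated over 22206 probe sets with squeezeVar of limma 3.58.1 in R 4.3.3 (prior SD 0.284, prior degrees of freedom 5.85). P-values are two-sided, adjusted by Benjamini-Hochberg across the array, and intervals are at 95%. A call needs 2-fold and an unadjusted p under 0.05. The test was checked on simulated arrays. How the averages were formed is not given in the sources used here, and with Tukey biweight averages, the other kind tested on simulated arrays, these p-values would be somewhat too low. A planned fit to single arrays could not be made from this table.

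The macrophage genes and the other lists were chosen with earlier results of these data known. The rule for members to be given with both averages and SDs named the 2 with the lowest p in each role, all that were called and all with a negative difference, and values of further members were added after they were seen. In the other lists the 3 genes with the lowest p and all called genes were to be named, and further names were added for their roles after the values were seen. Values of some listed genes are not reported here. Of the listed genes, *Cybc1* and *Trac* had no matching symbol. Promoter sequences are from RefSeq (GRCm38.p6).

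Arrays have no sequencing depth, and 4 arrays per group limit the precision. No label says that the samples of a group came from separate mice, so p-values measure the spread between these samples. The alternatives were other variance models, filters on dim or unexpressed probe sets, 1 probe set per symbol, rows that name 1 gene, a 1.5-fold threshold and subtraction of the group medians.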

Additional observations from a re-analysis of the deposited data

How the results depend on the processing

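The number of members at an adjusted p under 0.05 depended on the variance model. From 2 it went to 0 without moderation of the variances and to 0 with unequal variances, where 14 and 12 members had an unadjusted p under 0.05, and to 5 with trend and robust fitting (*Spi1*, *Cd68*, *Lyz2*, *C1qb* and *Fcgr3*). With a 1.5-fold threshold 17 members were called higher, in place of 8, as changes under 2-fold then count, while the share of all probe sets called higher went from 0.86% to 3.54%. Otherwise 7 or 8 members were called higher, and none was called lower in any setting. The rises of 4 members were lost without moderation (*Csf1r*, *C1qc*, *Cd163* and *Lyve1*), and *Mpeg1* and *Fcer1g* were lost as well with unequal variances. No setting turned a member's direction. The subtraction of the group medians left the difference and p of every member unchanged, and every other setting uses the same group averages. None of the settings could therefore have turned a direction. Without dim probe sets 30 members remained, and 1 marker of other cells fell in place of 2, since *Klrb1c* was no longer tested. No paired analysis was possible because the table holds no values of single arrays, and no replicate could be left out for the same reason, so that it is not known whether 1 muscle carries a difference.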
